A study of Drosophila melanogaster with 72 samples.

Results

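The 450 LINE-like retrotransposon copies described here were the annotated insertions of 9 Drosophila melanogaster families, Cr1a (131 copies), jockey (86), F (75), Doc (71), BS (33), BS3 (19), G (14), Doc3 (13) and Doc4 (8). A copy was taken if it had no gene identifier of its own, if its FlyBase symbol named one of these families, and if it held at least 10 counts summed over all libraries. Of the 24278 features in the files, 5898 were transposable element copies and 530 belonged to the 9 families, and 80 of the 530 fell under the minimum. Members held between 10 and 152677 counts, 2 of them at 10, and the highest copy left out held 8.

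The libraries held nuclear RNA from the outer photoreceptors of male flies at D10. GFP-KASH, a green fluorescent tag of the nuclear envelope, was driven by Rh1-Gal4, which is active in the outer photoreceptors R1 to R6, and tagged nuclei were immuno-enriched from the heads of 400 flies per library. Besides the driver and tag, the flies carried a UAS-RNAi transgene against Set1, Trr or Trx, the fly H3K4 methyltransferases, or against mCherry, a protein that flies lack and which served as control. Each knockdown rested on 1 RNAi line, so the knockdown and the genetic background of its line cannot be told apart, and a transposon insertion is one of the things in which fly lines differ. Each genotype was sampled at ZT0, ZT4, ZT8, ZT12, ZT16 and ZT20 (ZT is the time in hours after lights-on) with 3 replicates. At ZT20, 1 Set1 RNAi library was left out for its low count, and the study also removed it, for poor data quality. That left 17 Set1 RNAi libraries and 18 of each other genotype. The series text places the Trr and Trx libraries on another sequencer than the Set1 and mCherry libraries, so for those knockdowns the sequencer and the knockdown cannot be told apart.

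These elements are non-LTR retrotransposons. An intact copy is transcribed from a promoter inside its own 5′ end, its RNA encodes a reverse transcriptase, and the RNA is copied back into the genome at the point of insertion. Copying often stops early, so that many insertions lack the 5′ end and with it the promoter. Fly cells hold such elements in check by piRNAs, chiefly in the gonads, by siRNAs in somatic cells, and by packing them into heterochromatin. A nuclear library also holds unspliced transcripts, so a copy inside an intron can be read as part of the gene around it, and its counts alone do not say from which promoter the RNA started.

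The copies were 36 to 20135 bases long, with a median of 1250.5. Of the 450, 222 lay wholly within an intron, 141 on the strand opposite to the gene and 81 on the same strand, 219 lay between genes, and 9 overlapped an exon. Counting did not use strand, and read pairs that mapped to several places were not counted, so near-identical full-length copies are seen only through the bases in which they differ. A copy was tested if it reached 1 CPM (counts scaled to 1000000 per library) in all replicates of at least 1 genotype and time point. This held for 300 copies, and the 150 others had a median of 148 counts over all libraries. Of the 300, 214 reached that level in all 4 genotypes, while 10 reached it through Set1 RNAi alone, 2 through Trr RNAi alone, 5 through Trx RNAi alone and 0 through the control alone.

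Library totals ranged from 8424081 to 24586538 counts. One control library, mCherry RNAi at ZT12 replicate 1, stood apart: on the third principal component of the tested copies (6.22% of the variance) it lay at -26.2, and all other libraries lay between -8.77 and 8.65. It was kept, and counts without it stand beside the main ones. Levels are given as CPM after TMM scaling, which applies 1 factor per library and assumes that most features do not differ between libraries. The copies together took 0.276% ± 0.023 of the counts in Set1 RNAi, 0.254% ± 0.038 in Trr RNAi and 0.239% ± 0.017 in Trx RNAi, against 0.279% ± 0.026 in mCherry RNAi (SD over 17, 18, 18 and 18 libraries). On the TMM scale their sum was 3390 ± 276 CPM in Set1 RNAi, 2107 ± 354 in Trr RNAi and 1882 ± 189 in Trx RNAi, against 3567 ± 386 in mCherry RNAi. The scaling factors were 0.759 to 0.902 in Set1 RNAi, 1.12 to 1.31 in Trr RNAi and 1.15 to 1.36 in Trx RNAi, against 0.718 to 0.894 in mCherry RNAi. The size of the Trr and Trx falls therefore depended on the scaling, and values without it stand beside the counts they change.

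The targeted genes were checked first. Set1 RNA was 195, 247 and 364 CPM in Set1 RNAi (lowest, median, highest library), against 156, 264 and 368 CPM in mCherry RNAi (log2 fold change -0.03 ± 0.07 SE, adjusted p = 0.747). In nuclear RNA, Set1 was thus not detectably lowered by its own RNAi. The study has other evidence on the knockdowns. It reports less bulk H3K4me3 (trimethylated H3K4) on a Western blot of larvae with ubiquitous Set1 RNAi. For Trx and Trr RNAi it reports lower H3K4me3 at promoters in photoreceptors, by CUT&RUN. The trr RNA was lower with Trr RNAi (-0.94 ± 0.06), but nearly as much with Trx RNAi (-0.86 ± 0.06), and trx RNA changed by -0.17 ± 0.05 with Trx RNAi (adjusted p = 0.00129). In both of these knockdowns the markers of the sorted cell type also moved: 12 of 12 outer photoreceptor markers (ninaE, the Rh1 opsin, among them) were called lower in Trr RNAi and 11 of 12 in Trx RNAi, with a median of 0.188 and 0.178 times the control. Their summed level ranged over 15993 to 25999 CPM in Trr RNAi and 15616 to 29006 CPM in Trx RNAi, against 67060 to 130655 CPM in mCherry RNAi. Markers of muscle (7 of 7), fat body (5 of 5), brain neurons (7 of 7), hemocytes (4 of 4), inner photoreceptors (4 of 4) and glia (5 of 6) were called higher in both, and of 4 pigment and lens cell markers 3 were higher and 1 (w) lower. The muscle markers summed to 793 to 3305 CPM in Trr RNAi and 1136 to 3569 CPM in Trx RNAi, against 38.3 to 110 CPM in mCherry RNAi. With Set1 RNAi the shift was smaller. Of the 12 outer photoreceptor markers 0 were called, with a median of 0.757 times the control. Their sum was 60129 to 91450 CPM, which overlapped the control. Eaat1 (glia, 1.70), w (1.46) and wupA (muscle, 1.52) were called higher with Set1 RNAi. The part of these shifts in the results below was not tested, and fewer photoreceptor nuclei and less RNA per nucleus cannot be told apart in bulk libraries.

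Against the control, Set1 RNAi moved few copies and nearly all of those upwards, whereas Trr and Trx RNAi moved most copies, chiefly downwards. A change was called at an adjusted p under 0.01 (edgeR, over all 14767 features) with a change of at least 2-fold. With Set1 RNAi, 31 of the 300 copies were called higher and 1 lower, where 7.26% of all features were called higher and 1.66% lower. With Trr RNAi, 47 were higher and 139 lower, where 28.5% of all features were higher and 17.9% lower. With Trx RNAi, 46 were higher and 156 lower, where 28.5% of all features were higher and 18.7% lower. The median log2 fold change of the copies came to 0.07, -0.86 and -1.11 in the Set1, Trr and Trx comparisons, beside 0.01, 0.08 and 0.09 over all features. Without mCherry ZT12 replicate 1 the calls were 33 higher and 1 lower with Set1 RNAi, 47 higher and 140 lower with Trr RNAi, and 45 higher and 156 lower with Trx RNAi. The 2407 other transposable element copies tested leaned the same ways. In the Set1 comparison 15.2% of them rose and 3.95% fell, against 10.3% and 0.333% of the LINE-like copies. Falls took in 34.8% of these others for Trr and 35.9% for Trx, against 46.3% and 52.0%. Rises took in 22.0% and 21.3%, against 15.7% and 15.3%. The medians of the others were 0.11, -0.45 and -0.51 (Set1, Trr and Trx). The comparisons share the control libraries.

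Without scaling factors, the median over all features moved up by 0.63 with Trr RNAi and 0.70 with Trx RNAi, and that of the copies lay at -0.23 and -0.40. The split of calls then became 71 higher and 81 lower with Trr RNAi and 60 higher and 84 lower with Trx RNAi. The copies thus lay below the median feature on both scales, while the share called lower was set in part by the scale. The study applied RUVseq to its knockdown libraries because of batch effects, and its methods give no number of factors. Here, removing 3 factors of unwanted variation left 16 higher and 70 lower copies with Trr RNAi and 15 higher and 71 lower with Trx RNAi. In each, 10 of the copies called without this step changed sign. Among the 214 copies that passed in every genotype, 18 were higher and 102 lower with Trr RNAi, 16 higher and 117 lower with Trx RNAi, and 12 higher and 1 lower with Set1 RNAi.

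Trr and Trx RNAi, the only knockdowns on the same sequencer, differed in 5 copies, 2 called higher in Trr RNAi and 3 lower, where 0.42% of all features were higher and 0.718% lower. The median difference was 0.14. The 5 were BS{}1233, BS{}1260, BS3{}4792, Cr1a{}1081 and jockey{}841, and they included the copy with the largest fall in the Trr comparison (jockey{}841, -3.59 ± 0.14 in Trr against Trx RNAi).

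**Figure D1:**
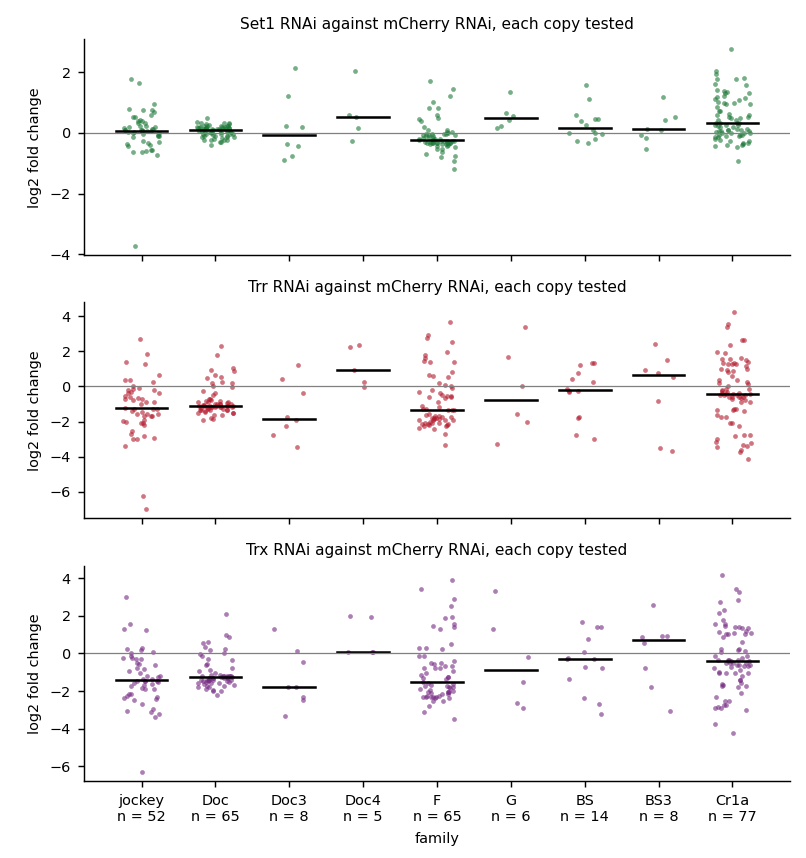
Log2 fold change of every tested copy against mCherry RNAi, by family, for Set1 RNAi (top), Trr RNAi (middle) and Trx RNAi (bottom). Each point is 1 copy and the bar is the family median. Most Doc, F and jockey copies lie below 0 with Trr and Trx RNAi, Cr1a copies lie on both sides, and with Set1 RNAi most points lie near 0, with 31 called higher, 19 of them Cr1a copies, and jockey{}841 at -3.72.

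The families differed. In Trr RNAi 38 of the 65 tested Doc copies were lower and 3 higher (median -1.09), and in Trx RNAi 47 were lower and 1 higher (median -1.28). Among 65 F copies, 37 fell and 10 rose in the Trr comparison (median -1.32), as did 39 and 10 in the Trx comparison (median -1.54). For the 52 jockey copies the calls were 27 lower and 4 higher in Trr RNAi (median -1.25) and 32 lower and 4 higher in Trx RNAi (median -1.41).

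Other families were more divided. The 77 Cr1a copies split nearly evenly, with 20 higher and 23 lower in Trr RNAi and 22 higher and 24 lower in Trx RNAi. Cr1a also held 19 of the 31 copies called higher with Set1 RNAi, and Doc held 0. Without scaling factors the Doc calls with Trr RNAi became 8 higher and 4 lower, those of F 14 higher and 29 lower and those of jockey 5 higher and 18 lower, and with Trx RNAi they became 6 and 9, 12 and 29, and 4 and 18. With 3 factors of unwanted variation removed, 11 Doc copies were lower in Trr RNAi and 14 in Trx RNAi, and the Cr1a median turned to 0.16 and 0.22.

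Sums over a family do not depend on which of its copies a counted read was given to. They too lack the read pairs that mapped to several places. The jockey sum over all its annotated copies was 91.2, 131 and 222 CPM in Trr RNAi (lowest, median, highest library) and 110.6, 124 and 150 CPM in Trx RNAi, against 332, 433 and 617 CPM in mCherry RNAi. Every Trr and Trx library lay below every control library. The log2 fold changes were -1.75 ± 0.06 (adjusted p = 2.65e-33) with Trr RNAi and -1.83 ± 0.06 (adjusted p = 3.35e-34) with Trx RNAi, and -1.03 and -1.04 without scaling factors. With Set1 RNAi the jockey sum was 283, 376 and 433 CPM, which overlapped the control (-0.26 ± 0.06, adjusted p = 0.000286).

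The F sum was 529, 675 and 1048 CPM in Trr RNAi and 531, 654 and 744 CPM in Trx RNAi, against 1072, 1411 and 1728 CPM in mCherry RNAi. Here too no library of either knockdown reached the control range, with changes of -0.97 ± 0.05 and -1.13 ± 0.05, which were -0.25 and -0.35 without scaling factors. The Doc sum was 284, 488 and 656 CPM in Trr RNAi and 261, 360 and 523 CPM in Trx RNAi, against 409, 504 and 822 CPM in mCherry RNAi. The Doc ranges overlapped, and its changes of -0.27 ± 0.08 and -0.57 ± 0.08 turned to 0.44 and 0.21 without scaling factors.

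At adjusted p under 0.01 with no minimum fold, in Trr RNAi 7 of the 9 family sums were lower and 1 higher, and the same counts held with Trx RNAi, where 41.8% and 42.4% of all entries of the summed table were higher and 35.7% and 35.6% lower. Without scaling factors, in Trr RNAi 4 sums were lower and 3 higher, and in Trx RNAi 5 lower and 3 higher. The Set1 comparison called 4 sums higher and 3 lower, where 18.8% of entries were higher and 11.6% lower. BS had the largest of the Set1 rises at 49.4, 82.8 and 128 CPM in Set1 RNAi, against 36.2, 51.7 and 82.5 CPM in mCherry RNAi (0.63 ± 0.07, adjusted p = 2.92e-10). Much of that rise lay in 1 copy, BS{}5998, with a median of 39.9 CPM in Set1 RNAi, against 11.7 CPM in mCherry RNAi, while the 14 tested BS copies had a median change of 0.16 and 2 of them were called higher. Doc4 was the family that was higher with all 3 knockdowns (0.47 ± 0.08, 0.58 ± 0.07 and 0.44 ± 0.07 with Set1, Trr and Trx RNAi). The BS3 sum was not called with Trr or Trx RNAi (-0.18 ± 0.09 and -0.16 ± 0.09), and was called higher at 0.54 and 0.63 without scaling factors. Over all 125 transposable element families with a sum, 88 were lower and 18 higher in Trr RNAi, 88 lower and 20 higher in Trx RNAi, and 18 lower and 54 higher in Set1 RNAi, so a lower sum in Trr and Trx RNAi was common among transposable elements.

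Summing only the copies outside every gene left jockey at -1.53 with Trr RNAi and -1.72 with Trx RNAi, and F at -0.53 and -0.70. The Cr1a sum, -0.79 ± 0.07 and -0.83 ± 0.07 over all its copies, came to -0.09 and -0.08 over those outside genes, with adjusted p of 0.262 and 0.318.

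Single copies reached larger changes than any family sum. The largest fall with Set1 RNAi and with Trr RNAi was in jockey{}841, a stretch of 344 bases in an intron of mbl (chr2R:17277272-17277615, BDGP6.46, same strand), the gene of the splicing factor muscleblind. Its level was 2.12, 5.44 and 12.2 CPM in Set1 RNAi, 0.205, 0.600 and 1.2002 CPM in Trr RNAi and 2.65, 7.78 and 12.1 CPM in Trx RNAi, against 27.5, 68.3 and 165 CPM in mCherry RNAi. No library of any knockdown overlapped the control, and the Trr libraries lay below all Set1 and Trx libraries. The log2 fold changes were -3.72 ± 0.12, -6.95 ± 0.14 and -3.36 ± 0.11, with adjusted p of 3.01e-32, 1.81e-43 and 5.25e-34. The host mbl moved by 0.41, -2.60 and -3.15, so that the copy fell relative to its host by 4.14 with Set1 RNAi and by 4.07 with Trr RNAi, while the ratio was -0.18 ± 0.13 with Trx RNAi.

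**Figure D2:**
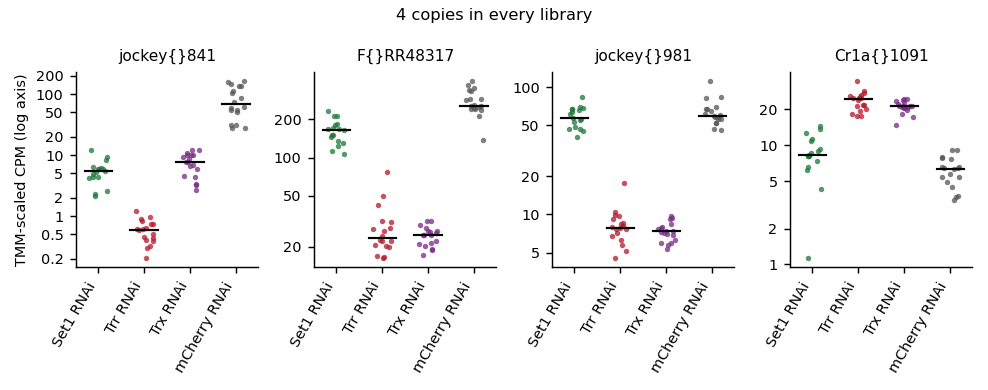
TMM-scaled CPM (log axis) of 4 copies in every library, with Set1, Trr and Trx RNAi to the left of mCherry RNAi. Each point is 1 library and the bar is the median. jockey{}841 separates all knockdowns from the control, F{}RR48317 and jockey{}981 separate Trr and Trx RNAi from Set1 and mCherry RNAi, and Cr1a{}1091 lies higher in Trr and Trx RNAi.

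Other copies with large falls lay in genes of the photoreceptor. jockey{}87 (chrX:8922385-8922744) sits in rdgA, the diacylglycerol kinase of phototransduction, and had 0.0414, 0.358 and 0.700 CPM in Trr RNAi and 0.133, 0.218 and 1.46 CPM in Trx RNAi, against 1.38, 33.0 and 61.8 CPM in mCherry RNAi. All Trr libraries lay below the control, while the highest Trx library lay above the lowest control library (-6.24 ± 0.36 and -6.29 ± 0.36), and rdgA moved by -2.53 and -3.01. F{}RR48317 (chr3L:25628555-25633261), a copy of 4707 bases in lovit, which encodes a histamine transporter of photoreceptor synaptic vesicles, held more CPM in the control than any other copy. It had 16.2, 23.4 and 77.0 CPM in Trr RNAi and 17.1, 24.8 and 31.9 CPM in Trx RNAi, against 137, 257 and 403 CPM in mCherry RNAi, with no overlap. The changes of -3.35 ± 0.11 and -3.51 ± 0.11 compared with -2.69 and -2.76 in lovit.

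Large falls were also seen in copies between genes. jockey{}981 (chr3L:11329750-11332879), which lies between genes and had the highest mean of its family over the genotypes, had 4.53, 7.87 and 17.5 CPM in Trr RNAi and 5.38, 7.34 and 9.69 CPM in Trx RNAi, against 45.6, 59.8 and 112 CPM in mCherry RNAi. The ranges were apart, at -2.99 ± 0.10 and -3.12 ± 0.10, while Set1 RNAi overlapped the control with 40.2, 57.0 and 83.2 CPM. Doc3{}646 (chr2R:5332717-5335800), the leading Doc3 copy, had 16.9, 23.0 and 34.1 CPM in Trr RNAi and 18.8, 24.7 and 32.2 CPM in Trx RNAi, against 45.8, 88.5 and 139 CPM in mCherry RNAi (-1.93 ± 0.07 and -1.78 ± 0.07, no overlap). Within a gene, Cr1a{}1081 in Neu2 had 1.15, 2.04 and 3.92 CPM in Trr RNAi, against 8.47, 24.7 and 38.2 CPM in mCherry RNAi (-3.45 ± 0.10), and its host moved alike (-3.51).

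Among copies that reached a mean of 5 CPM, most of the largest rises with Trr and Trx RNAi were in introns of genes that rose too. Cr1a{}667 (chr2R:5427871-5431452) lies in stw, the cuticle laccase gene straw, and had 8.99, 13.1 and 17.0 CPM in Trr RNAi and 10.3, 14.1 and 18.0 CPM in Trx RNAi, against 0.145, 2.01 and 4.06 CPM in mCherry RNAi. The changes of 2.65 ± 0.18 and 2.76 ± 0.18, with no overlap, stood beside 3.24 and 3.57 in stw. Cr1a{}2258 in Ac3, an adenylyl cyclase gene, rose by 2.39 ± 0.17 and 2.14 ± 0.17, and the host was called higher in both. Doc4{}4397 in Ugt50B3 rose by 2.34 ± 0.20 and 1.99 ± 0.20, beside 2.38 and 2.12, and Doc4{}6515 in Myo81F, a myosin gene, by 2.26 ± 0.17 and 1.92 ± 0.17, beside 2.29 and 1.90. The exception was Cr1a{}1091 (chr3L:22532307-22533849), which lies between genes and had 17.6, 24.3 and 34.7 CPM in Trr RNAi and 14.9, 21.2 and 24.5 CPM in Trx RNAi, against 3.49, 6.37 and 9.17 CPM in mCherry RNAi (1.94 ± 0.12 and 1.79 ± 0.12, no overlap). With 3 factors of unwanted variation removed, Doc4{}4397 lay at -0.18 and -0.47.

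Other leading copies of a family moved by less than 2-fold. F{}1572 in Cadps, a gene of vesicle priming, had 92.7, 131 and 203 CPM in Trr RNAi and 80.3, 125 and 148 CPM in Trx RNAi, against 114, 194 and 260 CPM in mCherry RNAi, changes under 2-fold in overlapping ranges (-0.51 ± 0.07 and -0.67 ± 0.07). Doc{}RR48382 on 2R had 34.0, 58.5 and 94.5 CPM in Trr RNAi, against 12.9, 26.2 and 91.0 CPM in mCherry RNAi (0.92 ± 0.13, under the 2-fold minimum). Doc4{}2555 in Nipped-A, a cofactor of histone acetyltransferase complexes, stayed within 0.17 log2 units of the control in all 3 comparisons, and BS3{}5390 in the calcium pump gene PMCA was at -0.16 ± 0.16, -0.81 ± 0.15 and -0.75 ± 0.15.

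Copies within genes were next set against their hosts. The log2 ratio of a copy to the gene around it was compared between genotypes for 166 copies with a tested host (limma, adjusted p under 0.05). Of these, 162 had no base in an exon. Hosts were counted over their exons, so the ratio mostly set intron reads of the copy against exon reads of the host. With Trr RNAi 26 copies rose relative to their host and 98 fell, where 16.7% of all 1693 transposable element copies with a host rose and 40.8% fell. With Trx RNAi 24 rose and 98 fell, where 15.4% rose and 39.3% fell. With Set1 RNAi 13 rose and 26 fell, where 8.98% rose and 11.9% fell. The median ratios were -0.58, -0.64 and -0.06 for Trr, Trx and Set1 RNAi, beside -0.21, -0.18 and 0.03 over all transposable element copies with a host.

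Across the 166 copies the fold change of copy and host went together, with Pearson's r of 0.63 for Trr RNAi, 0.59 for Trx RNAi and 0.42 for Set1 RNAi. These points share libraries, and copies of 1 gene share their host. The strength differed between families, at 0.95, 0.92 and 0.96 for the 38 Cr1a copies and at 0.32, 0.33 and -0.25 for the 35 Doc copies (Trr, Trx and Set1 RNAi). In INE-1, a short non-autonomous element with 728 copies in tested hosts, r was 0.89, 0.88 and 0.84.

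Copies of different lengths also differed. Among the 43 copies under 500 bases with a tested host, r with the host was 0.82 for Trr RNAi and 0.83 for Trx RNAi. It was 0.81 and 0.77 among the 33 copies of 500 to under 2000 bases, 0.76 and 0.73 among the 27 of 2000 to under 4000 bases, and 0.32 and 0.30 among the 63 of 4000 bases and over. With Set1 RNAi it was 0.47, 0.65, 0.78 and 0.27 in these classes. Families differed within a class too: at 2000 to under 4000 bases r was 0.20 for 7 Doc copies and 0.98 for 7 Cr1a copies with Trr RNAi. The hosts of the long copies had a median change of 0.85 with Trr RNAi and 0.90 with Trx RNAi, whereas over all 108 tested copies of that length 62 were called lower and 6 higher with Trr RNAi and 69 lower and 5 higher with Trx RNAi. Most of these were F (40) and Doc (43) copies near full length. All 40 long F copies had a median of -1.74 with Trr RNAi, and the hosts of the 27 with a tested host had a median of 1.504. All 43 long Doc copies had a median of -1.02, and the hosts of the 23 with a tested host had 1.44. Without scaling factors the 108 long copies split into 17 higher and 32 lower with Trr RNAi, and 12 higher and 35 lower with Trx RNAi. How many read pairs of alike copies went uncounted because they mapped to several places was not tested.

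**Figure D3:**
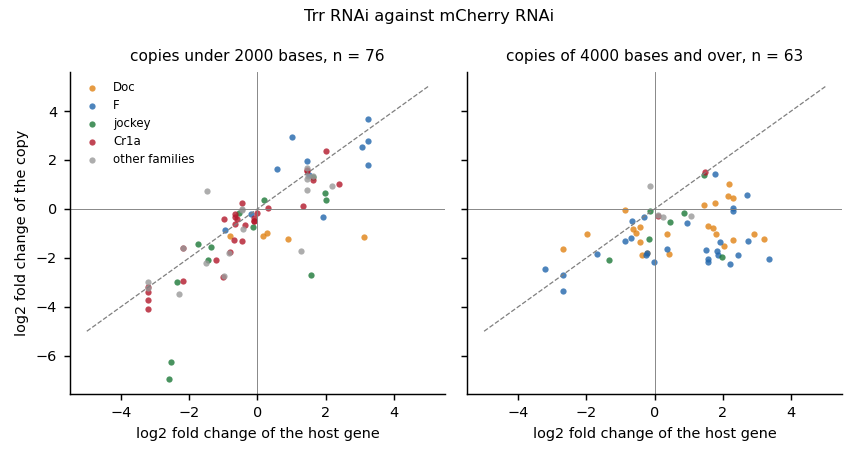
Log2 fold change of each copy (vertical) against that of its host gene (horizontal) with Trr RNAi against mCherry RNAi, for copies under 2000 bases (left) and of 4000 bases and over (right). The dashed line marks equal change. Short copies follow the line, whereas most long F and Doc copies lie below it where the host rose. Over all tested long F and Doc copies, with or without a host, the medians were -1.74 and -1.02.

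With Trr and Trx RNAi, the copies furthest below their hosts were long Doc and F copies. F{}842, which overlaps an exon of NT5E-2, moved by -2.05 ± 0.15 with Trr RNAi while NT5E-2 moved by 3.36, a log2 ratio of -5.32 ± 0.22. F{}763 in prickle (pk), a planar polarity gene, had 0.659, 1.34 and 2.31 CPM in Trr RNAi, against 4.71, 6.25 and 9.52 CPM in mCherry RNAi, with no overlap, while pk rose by 2.21 (ratio -4.59 ± 0.29). Doc{}325 in the transglutaminase gene Tg had a ratio of -4.37 ± 0.21 with Trr RNAi and -4.92 ± 0.21 with Trx RNAi, and F{}998 in bbg had -4.29 ± 0.13 and -4.52 ± 0.13. In each of these the copy was called lower and the host higher. With Set1 RNAi the lowest ratio was that of jockey{}841 in mbl, given above. The next lowest were at Pzl, a Piezo-like channel gene. There F{}RR48335 and Doc{}RR48385 were not called, at -0.20 ± 0.09 and -0.29 ± 0.09, while their shared host was 2.71 higher. That gave ratios of -2.94 ± 0.20 and -3.02 ± 0.20.

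Fewer copies stood above their hosts. Doc{}6512 in nvd, a gene of ecdysone synthesis, moved by -0.88 ± 0.14 with Trr RNAi while nvd moved by -3.04 (ratio 1.76 ± 0.29). Doc{}RR42006 in lovit had ratios of 1.31 ± 0.22 and 1.25 ± 0.22 with Trr and Trx RNAi, its levels of -1.63 ± 0.24 and -1.76 ± 0.24 being less lowered than lovit, and with 3 factors of unwanted variation removed they turned to 1.65 and 1.59. BS{}1233 in Osi24 was above its host in all 3 comparisons (1.08 ± 0.31, 2.01 ± 0.31 and 1.32 ± 0.31 with Set1, Trr and Trx RNAi), with its own level within 2-fold of the control. F{}1084 in CG32444 rose by 2.94 ± 0.25 and 3.46 ± 0.25, more than its host (ratios 1.38 ± 0.24 and 1.56 ± 0.24). With Set1 RNAi, Doc{}Ir93a[iso-1] in the ionotropic receptor gene Ir93a (0.86 ± 0.15) and Doc4{}3633 in d4 (0.93 ± 0.28) had the other highest ratios, and neither copy's own level was called.

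Neighbouring copies moved alike. Of 293 pairs of tested copies that were adjacent on a chromosome arm, the 48 pairs under 10 kb apart had a Pearson's r between their log2 fold changes of 0.66 in the Set1 comparison, 0.87 in the Trr comparison and 0.87 in the Trx comparison. The 86 pairs 10 to 100 kb apart had 0.54, 0.39 and 0.45, and the 159 pairs further apart -0.04, 0.13 and 0.15. In the 29 close pairs whose copies were of different families, r was 0.76, 0.85 and 0.85. The pairs share libraries, and a copy can enter a pair on each side.

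**Figure D4:**
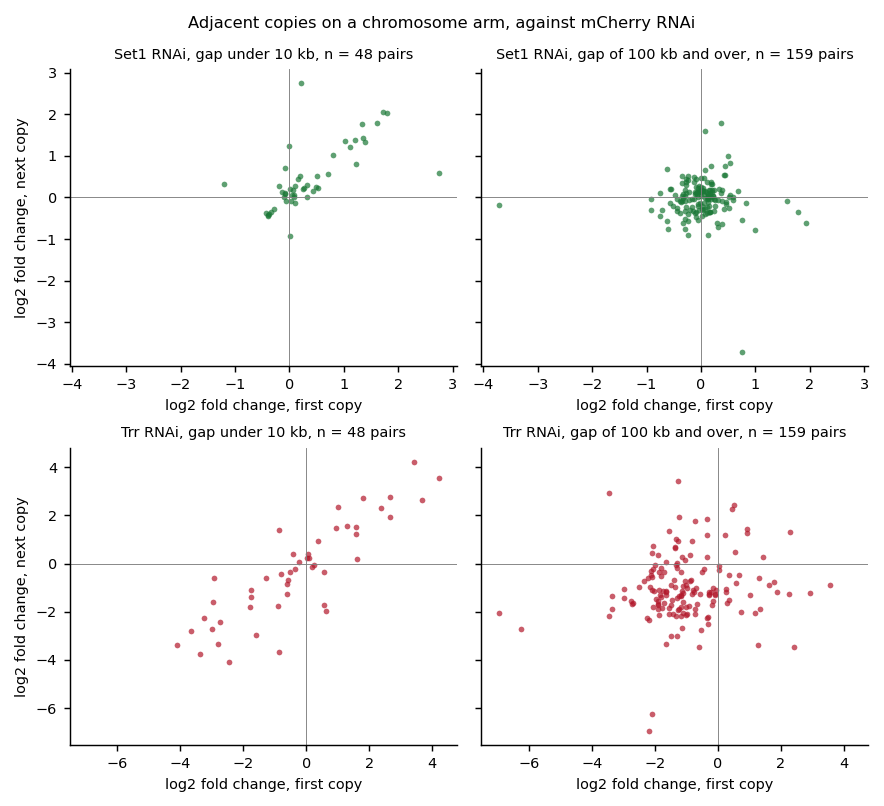
Log2 fold change of a copy (horizontal) and of the next tested copy on the same arm (vertical) against mCherry RNAi, for Set1 RNAi (top) and Trr RNAi (bottom), with pairs under 10 kb apart on the left (n = 48) and pairs over 100 kb apart on the right (n = 159). Close pairs lie along the diagonal and distant pairs do not.

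There were 12 stretches of at least 4 tested copies with gaps of at most 50 kb, and they held 108 of the 300 copies. The stretches were defined by position alone, and those described below were singled out after their values had been seen. With Set1 RNAi the stretches held 28 of the 31 copies called higher, and the 192 copies outside held 3. With Trr RNAi 28 copies were higher and 32 lower inside the stretches, and 19 higher and 107 lower outside. Copies inside had a median length of 1138.5 bases and copies outside of 4220.5.

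The largest stretch lay at the base of 2R (chr2R:4880105-5208450) and held 24 tested copies of 8 families. With Set1 RNAi 15 of them were called higher and 0 lower (median 1.11), and with Trr RNAi 0 were higher and 18 lower (median -2.75), with the same counts for Trx RNAi (median -2.32). Their summed level was 127, 364 and 563 CPM in Set1 RNAi, 36.9, 54.1 and 78.1 CPM in Trr RNAi and 47.5, 59.6 and 81.3 CPM in Trx RNAi, against 68.3, 137 and 352 CPM in mCherry RNAi. Pooled over the day, Set1 RNAi overlapped the control, and only the lowest control libraries met the Trr and Trx ranges. At each single time point, however, all Set1 libraries lay above the control libraries. At ZT0 they spanned 127 to 183 CPM, against 68.3 to 100 CPM in mCherry RNAi. At ZT8 it was 404 to 563 CPM, against 286 to 352 CPM, and at ZT12 365 to 407 CPM, against 191 to 346 CPM. The 156 other transposable element copies tested in this stretch went the same ways, with 102 higher and 1 lower with Set1 RNAi, and 3 higher and 106 lower with Trr RNAi. Of 10 genes tested in it, 4 were called higher and 0 lower with Set1 RNAi, 0 higher and 6 lower with Trr RNAi, and 0 higher and 4 lower with Trx RNAi. Ir41a, which encodes an ionotropic receptor, moved by 1.08 in Set1 RNAi, -3.22 in Trr RNAi and -2.69 in Trx RNAi, and the gene CR43360 moved by 1.77, -2.32 and -2.28. Other genes there did not follow, such as Atf6 (-0.11, -0.10 and -0.12) and gus (-0.40, -0.43 and -0.47).

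Both leading copies in Ir41a followed this pattern. Doc3{}Ir41a[600] (chr2R:4981076-4983502) had 10.5, 40.1 and 70.5 CPM in Set1 RNAi, 0.637, 1.67 and 5.90 CPM in Trr RNAi and 1.09, 2.38 and 6.87 CPM in Trx RNAi, against 2.68, 10.9 and 40.7 CPM in mCherry RNAi. BS{}5998 (chr2R:4977135-4978375), the leading BS copy, had 12.4, 39.9 and 79.4 CPM in Set1 RNAi, 0.590, 1.85 and 5.20 CPM in Trr RNAi and 0.893, 2.29 and 6.59 CPM in Trx RNAi, against 4.99, 11.7 and 48.5 CPM in mCherry RNAi. Pooled over the time points, the Set1 range of both copies overlapped that of the control widely. The Trr and Trx ranges overlapped the lower part of the pooled control range. Their log2 ratios to Ir41a lay between 0.05 and 0.49 in all 3 comparisons. The Doc3 copy was called above its host with Trr RNAi (0.49 ± 0.16) and Trx RNAi (0.42 ± 0.16), and BS{}5998 was not called in any.

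The next stretch on the arm (chr2R:5284688-5645958, 18 copies) was divided. With Trr RNAi 11 copies were higher and 1 lower (median 1.64), and with Trx RNAi 10 higher and 1 lower (median 1.47), while with Set1 RNAi 1 was higher and 0 lower. The 76 other transposable element copies tested in it leaned lower, with 25 higher and 33 lower in Trr RNAi (median -0.84) and 21 higher and 38 lower in Trx RNAi (median -0.99). Of 15 genes tested in it, 3 were called higher with Trr RNAi, stw, CG30440 and Ugt50B3, and each of them holds copies of the stretch in its introns. On 3L, 6 copies in and beside AGO3 (chr3L:23537687-23625375) were higher in 5 cases with Trr RNAi and in 5 with Trx RNAi, beside a rise of AGO3, the piRNA pathway Argonaute, of 1.44 and 1.43.

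A stretch around nrm, the adhesion molecule gene neuromusculin (chr3L:23016685-23145542), held 10 copies. With Set1 RNAi 6 were higher and 0 lower (median 1.66), with Trr RNAi 1 higher and 4 lower, and with Trx RNAi 1 higher and 4 lower. It held Cr1a{}1596 in an intron of nrm, with 182, 303 and 466 CPM in Set1 RNAi, 16.9, 30.5 and 93.2 CPM in Trr RNAi and 23.7, 39.4 and 54.5 CPM in Trx RNAi, against 130, 221 and 546 CPM in mCherry RNAi. The Trr and Trx libraries lay below the control (-2.97 ± 0.12 and -2.72 ± 0.12), beside -2.17 and -2.20 in nrm. G{}4002 in the same gene moved by -1.59 ± 0.10 and -1.53 ± 0.10.

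The Set1 rises among the LINE-like copies of this stretch were in copies other than Cr1a{}1596. Cr1a{}1110 (chr3L:23049900-23053301) had 17.5, 90.0 and 148 CPM in Set1 RNAi, against 5.23, 8.24 and 59.5 CPM in mCherry RNAi (1.80 ± 0.11), and the adjoining Cr1a{}1111 rose by 2.04 ± 0.18 and Doc4{}3915 by 2.04 ± 0.21. Pooled over the time points, all 3 overlapped the control. Outside the stretches, Cr1a{}5895 in an intron of tyn on X had 4.28, 7.08 and 10.2 CPM in Set1 RNAi, against 0.314, 1.53 and 8.71 CPM in mCherry RNAi (1.92 ± 0.16), with tyn at 2.02.

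Levels also changed over the day. A 24-h rhythm, tested with cosine and sine terms at an adjusted p under 0.05, was called for 72 of the 300 copies in Set1 RNAi, 35 in Trr RNAi and 18 in Trx RNAi, against 99 in mCherry RNAi. Of all features 34.1%, 5.88% and 4.06% were rhythmic in Set1, Trr and Trx RNAi, and 42.6% in mCherry RNAi. The median peak-to-trough amplitude of the rhythmic copies was 1.43 log2 units in Set1 RNAi, 1.09 in Trr RNAi and 2.43 in Trx RNAi, against 1.37 in mCherry RNAi. These medians cover only copies called rhythmic in that genotype. Over all 300 copies the median was 0.61, 0.58 and 0.30, against 0.62 in mCherry RNAi. The 99 control peaks were spread over the day, with 21 in the first 4 h, 22 between 8 and 12 h and 21 in the last 4 h. In Trx RNAi 13 of the 18 peaks lay between 8 and 12 h, and 14 of the 18 copies lay in the stretch at the base of 2R.

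Of the 99 copies rhythmic in the control, 50 had a tested host and 37 of these hosts were rhythmic, 27 with a peak within 3 h of the copy. A change of rhythm against the control was called for 5 copies in the Set1 comparison, 41 in the Trr comparison and 40 in the Trx comparison, where 3.6%, 21% and 17.6% of all features changed. These shares lay below those of all features in all 3 comparisons. Without mCherry ZT12 replicate 1 the control had 88 rhythmic copies, and 6, 39 and 38 changes of rhythm were called. Fewer were called with fewer libraries: leaving out replicate 2 in every group left 0, 11 and 6, and over the 3 such omissions the rhythmic copies numbered 39 to 52 in Set1 RNAi, 9 to 13 in Trr RNAi and 11 to 16 in Trx RNAi, against 70 to 89 in mCherry RNAi.

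The stretches at the base of 2R and around nrm held many of the rhythms. Other features there were rhythmic too. In mCherry RNAi it was 124 of 156 other transposable element copies and 8 of 10 genes at the base of 2R. Around nrm it was 33 of 52 and 1 of 5, beside 6 of the 10 LINE-like copies. At the base of 2R 22 of the 24 LINE-like copies were rhythmic in Set1 RNAi, 10 in Trr RNAi and 14 in Trx RNAi, against 22 in mCherry RNAi. The summed level in the control was 84.0 ± 15.9 CPM at ZT0, 195 ± 36 at ZT4, 323 ± 34 at ZT8, 255 ± 81 at ZT12, 112 ± 6 at ZT16 and 102 ± 18 at ZT20 (SD, n = 3 libraries). Set1 RNAi had the same peak time at a higher level, 489 ± 80 CPM at ZT8 against 155 ± 28 at ZT0. In Trr RNAi the sum was 70.0 ± 13.4 CPM at ZT8 and 57.3 ± 12.0 at ZT0, and in Trx RNAi 72.1 ± 7.6 at ZT8 and 48.4 ± 1.2 at ZT0.

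**Figure D5:**
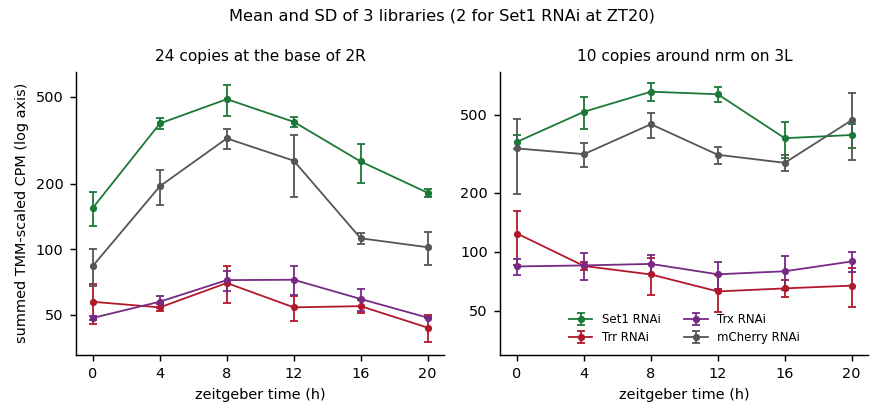
Summed TMM-scaled CPM (log axis) of the tested copies in the stretch at the base of 2R (left) and in the stretch around nrm on 3L (right) by zeitgeber time, for Set1, Trr, Trx and mCherry RNAi. Points are means and bars SDs of 3 libraries (2 for Set1 RNAi at ZT20). At the base of 2R Set1 and mCherry RNAi peak at ZT8, and the means of Trr and Trx RNAi stay between 43.7 and 72.4 CPM.

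The copies with the smallest p for a rhythm in the control all lay in these stretches. Cr1a{}1110 had control means of 6.23 ± 0.58 CPM at ZT0, 45.9 ± 8.3 at ZT4, 51.9 ± 6.6 at ZT8, 21.2 ± 16.5 at ZT12, 6.72 ± 1.11 at ZT16 and 7.32 ± 1.32 at ZT20, an amplitude of 3.45 (adjusted p = 1.01e-16). Set1 RNAi kept an amplitude of 3.14 (adjusted p = 1.03e-13), whereas in Trr RNAi its means lay between 9.72 and 14.2 CPM and in Trx RNAi between 9.95 and 15.2 CPM, with no rhythm called. The rhythm differed from the control with Trr RNAi (adjusted p = 5.27e-09) and Trx RNAi (adjusted p = 7.24e-08). Its neighbour Cr1a{}3282 (chr3L:23049106-23049899, amplitude 4.71) also lost its call in both. At the base of 2R, Cr1a{}6066 (amplitude 4.98) and Doc3{}Ir41a[600] (amplitude 3.26) remained rhythmic in Trr RNAi, at 2.49 and 1.92, and in Trx RNAi, at 4.44 and 2.49. Those amplitudes stood on low levels, since no library of either knockdown held more than 6.87 CPM of Doc3{}Ir41a[600], and Cr1a{}6066 lay lower still.

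Genes known to silence transposons gave no uniform picture. Of 16 tested genes of the piRNA pathway, 1 was called lower and none higher with Set1 RNAi by edgeR (tej, at 0.98, passed the adjusted p but not the 2-fold minimum), 6 higher and 2 lower with Trr RNAi, and 4 higher and 3 lower with Trx RNAi. The RNA helicase gene spn-E was 3.71 ± 0.86 CPM in Trr RNAi and 3.33 ± 0.81 in Trx RNAi, against 0.665 ± 0.408 in mCherry RNAi (log2 fold changes 2.47 and 2.32), whereas tej was 9.18 ± 1.39 and 8.91 ± 1.06 CPM, against 39.3 ± 20.6 (-1.90 and -1.94). The HP1 homologue gene rhi was also called lower in both (-1.61 and -1.73), and arx was the gene called with Set1 RNAi (-1.505). Among the siRNA pathway genes, AGO2 stayed at 0.01 and -0.01 with Trr and Trx RNAi and r2d2 at 0.16 and 0.12, while Dcr-2 (0.94 and 0.94) and loqs (-0.55 and -0.44) passed the adjusted p with changes under 2-fold. Of 16 heterochromatin genes, Su(var)3-9, which encodes an H3K9 methyltransferase, changed most with Set1 RNAi (0.38, adjusted p = 0.000431 by edgeR), while the histone demethylase gene Kdm4B was called lower with Trr RNAi (-1.21) and Trx RNAi (-1.33), and Kdm4A was called with Trr RNAi (-1.02) and lay just under the 2-fold minimum with Trx RNAi (-0.91).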

How the data were processed

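Nuclear RNA was sequenced in 72 libraries. The authors trimmed reads with cutadapt 3.7 and Trimmomatic 0.39, aligned them with HISAT2 2.2.1 and SAMtools 1.17, and deposited raw counts of read pairs per feature from featureCounts (Subread 2.0.1, Ensembl annotation of BDGP6.46), without multi-mapped pairs and without strand. Coordinates are those of the files. Libraries were rRNA-depleted and no molecular identifiers are named in the sources used here, so PCR duplicates may stay in the counts and counting error is the least error a count has. P-values measure the spread between libraries of flies pooled per library.

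Groups came from the labels. The 1 library of 687 counts was left out, and no replicates of a genotype and time point matched within sampling noise. The 14767 features that reached 1 CPM in each replicate of some genotype and time point were fitted together, with TMM factors and by edgeR's quasi-likelihood test (edgeR 4.0.16, R 4.3.3), 1 mean per genotype and time for mean expression and cosine and sine terms for the 24-h rhythm. Copy and host were compared by limma 3.58.1 on log2 CPM with a prior count of 2, and family sums by edgeR on summed counts. P-values were adjusted by Benjamini-Hochberg, for mean expression and rhythm over all features tested. For the ratios this was over the 1693 transposable element copies with a tested host, and for family sums over the 12185 entries of the summed table. The host is the gene whose span holds the copy.

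Copies named in the text were the leading copy of each family by mean CPM, the 4 largest rises and 3 largest falls per knockdown among called copies with a mean of at least 5 CPM and 1 direction at all 6 times, the 4 clearest control rhythms, the 3 highest and lowest ratios to the host per knockdown, and the hosts. Other copies named, the stretches and the genes in them were chosen after their values had been seen. The members and lists were chosen with earlier results of these data known. On simulated data 199 of 200 changed features were found in the Trr comparison with 0 false calls. For rhythms in the control it was 194 of 200 with 6 false, and for changes of rhythm 182 of 200 with 5 false. For ratios it was 199 of 200 with 7 false. The 200 features of the Trr comparison lay among 14767. In the libraries themselves, 28.5% of all features were called higher and 17.9% lower with Trr RNAi. Recovery with that many features changed was not tested.

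Alternatives were DESeq2 1.42.0, other size factors and filters, 1 or 3 factors of unwanted variation (RUVs), other thresholds, hosts and prior counts, libraries left out, and, chosen after seeing the data, library totals without scaling, the omission of mCherry ZT12 replicate 1, which stood apart, and copies free of exons. No sequence was analysed here.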

Additional observations from a re-analysis of the deposited data

Results flagged for a closer look

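All of the results singled out here are differences in rhythm between a knockdown and the control, tested as an interaction of genotype with the cosine and sine terms (edgeR's quasi-likelihood test). Such a difference was found for 5 of the 300 copies in the Set1 comparison, 41 in the Trr comparison and 40 in the Trx comparison. Of all features 3.6%, 21% and 17.6% differed, so the shares of the copies lay below those of all features. With Set1 RNAi, the named copies among them were Cr1a{}6066 at the base of 2R (adjusted p = 0.0036) and Doc3{}646 (adjusted p = 0.0287).

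The clearest differences were in the stretch around nrm. For Cr1a{}1110 the adjusted p was 5.27e-09 with Trr RNAi and 7.24e-08 with Trx RNAi, for Cr1a{}3282 it was 1.47e-07 and 4.21e-06, for Cr1a{}1111 it was 3.58e-05 and 0.000642, and for Doc4{}3915 it was 4.28e-05 and 0.000196. In each of the 4 the rhythm called in the control was not called in Trr or Trx RNAi. Cr1a{}1596 in nrm itself was rhythmic in Trr RNAi and not in the control (adjusted p of the difference 0.0175).

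Elsewhere, Doc3{}Ir41a[600] differed with Trr RNAi (adjusted p = 0.0302) and Trx RNAi (0.0164), and BS3{}5390 in PMCA with both (0.0426 and 0.0422). The other named copies with a called difference were jockey{}841 (0.0259), Cr1a{}1081 (0.0288), Cr1a{}5895 (0.0164) and F{}RR48317 (0.0221) in the Trr comparison, and Doc3{}646 (0.0103) and Doc{}RR48382 (0.00581) in the Trx comparison. Whether the Trr and Trx effects on a rhythm differ from each other was not tested.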

How the results depend on the processing

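Of 280 values recomputed for the comparisons, 234 stayed within 1.5 times (counts) or 1 SD (medians), and of 2486 recomputed for named copies, 2395 kept direction and call, 38 lost the call, 49 gained one and 4 turned round. The 4 arose with 3 RUVs factors, where Doc4{}4397 lay at -0.18 and -0.47 and Doc{}RR42006 at 1.65 and 1.59 with Trr and Trx RNAi. The same setting gave a median over the copies of -0.019 for Set1 RNAi, -0.30 for Trr RNAi and -0.50 for Trx RNAi, 86 and 86 called copies with Trr and Trx RNAi, and 14 changes of rhythm with Set1 RNAi. At an adjusted p under 0.05 with no minimum fold, 111 copies were called with Set1 RNAi and 39 between Trr and Trx RNAi. At least 1 CPM in every library left 119 copies, and calls of 3, 56 and 65 with Set1, Trr and Trx RNAi, 1 between Trr and Trx RNAi, rhythms in 36, 22 and 4, against 46 in mCherry RNAi, and changes of rhythm in 1, 25 and 25. With 10 counts as the filter the medians were -0.47 with Trr RNAi and -0.60 with Trx RNAi. On library totals they were -0.23 and -0.40, with 3 calls between Trr and Trx RNAi. Fitting only the genotypes compared gave 54 control rhythms and 1, 21 and 25 changes with Set1, Trr and Trx RNAi. Hosts on the same strand left 17, 43 and 41 called ratios, and family sums outside genes 5 calls with Trr RNAi. The cause was not tested, beyond the fewer copies or libraries that some settings hold.

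Leaving out 1 replicate number gave 39 to 52 rhythms in Set1 RNAi, 9 to 13 in Trr RNAi and 11 to 16 in Trx RNAi, against 70 to 89 in mCherry RNAi, changes of rhythm of 0 to 4, 11 to 28 and 6 to 21 with Set1, Trr and Trx RNAi, 19 to 36 called ratios with Set1 RNAi and 3 to 6 calls between Trr and Trx RNAi. Without mCherry ZT12 replicate 1 no count of calls over all copies moved by over 1.5 times. The replicate numbers did not pair the libraries: same-numbered libraries of different groups had a median correlation of 0.01, 0.00 and 0.02 for numbers 1, 2 and 3, and a replicate block gave 33, 186 and 202 calls with Set1, Trr and Trx RNAi and 40 changes of rhythm with Trr RNAi, with no count moved by over 1.5 times. The 150 copies that were not tested had a mean of at most 1.63 CPM in any genotype.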

Other observations

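Per base of length, the highest control level of any copy was in jockey{}3041, 60 bases in eag, a potassium channel gene, at 396 RPKM. A read pair counts for a copy it only overlaps, so dividing by so short a length raises the value and copies of different length are not strictly comparable on this scale. The next was jockey{}841 at 244 RPKM, and Cr1a{}1596 in nrm had 182 RPKM. Of the 26 copies tested on chromosome 4, a largely heterochromatic chromosome, 2 were called higher and 4 lower with Trr RNAi and 3 higher and 7 lower with Trx RNAi. Of all features 28.5% were called higher in each comparison, and 17.9% and 18.7% lower. The chromosome 4 copies had a median of -0.49 in the Trr comparison. It was -0.65 on 3L, -0.81 on 2R, -1.06 on 3R, -1.20 on 2L and -1.31 over the 19 copies tested on X.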
